A study of Mus musculus with 6 samples.

Results

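The DNA replication and mitosis genes described here are 43 genes chosen by name for their roles in the cell cycle. All 43 symbols were matched through GENCODE M21 names to the gene identifiers of the expression files, which list 54886 genes. All 43 also had a mean of at least 1 FPKM, the limit for testing, which 11884 genes passed. FPKM are fragments assigned to a gene per unit of exon length and library depth. The depth behind these values followed size factors and not total reads. They comprise 17 S phase genes (helicase, origin and polymerase genes), 5 regulators of the G1/S transition and 21 genes of G2 and mitosis (G2/M). The cells are GC-2spd, a line of BALB/c mouse spermatocyte origin, and their RNA was sequenced in 3 control libraries and in 3 libraries made after 48 h with 100 μg/mL of PM2.5. PM2.5 is fine particulate matter, here an urban reference dust suspended in PBS. The labels give normal medium for the control group, and the methods of the proliferation assay add PBS to it. The labels name no genetic change or further agent between the groups. The line was immortalized with the SV40 large T antigen and carries a p53 transgene, which both groups share. Nothing in the labels says that the replicates came from separate cultures, so p-values measure the spread between these libraries, which may be technical.

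A cell copies its genome once in S phase and separates the copies in mitosis. The Mcm2-7 helicase is loaded onto replication origins by Orc1, Cdc6 and Cdt1, is completed by Cdc45 and the GINS complex, and opens the DNA for polymerases held on it by the Pcna clamp. Cyclins with their kinases time these steps, the E2F factors drive S phase genes, and the MuvB complex with B-Myb and FoxM1 drives G2/M genes through promoter elements named CHR. The large T antigen of SV40 binds the RB family, which restrains E2F.

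The promoters of 4 members are printed because S phase and G2/M promoters held these elements in different shares, and because the values of these 4 genes are followed below. They are RefSeq sequences on GRCm38.p6, from 250 bases before to 50 bases after a start listed in RefSeq. That start need not be the start of the gene positions given below. The sequences are written 5′ to 3′ on the strand of the gene. Capitals mark matches, on either strand, to the E2F letters (TTTCCCGC, TTTCGCGC, TTTGCCGC or TTTGGCGC), the CHR letters (TTTGAA or TTCGAA) and the CCAAT box. A capital run can hold 2 motifs, as at the end of the Mcm7 sequence, where an E2F and a CCAAT match share 1 base. Pcna lies at chr2:132253131-132253430 on the minus strand, Mcm7 (the first of its 2 promoters in RefSeq) at chr5:138171834-138172133 on the minus strand, Ccnb2 at chr9:70421505-70421804 on the minus strand and Plk1 at chr7:122159185-122159484 on the plus strand.
Pcna: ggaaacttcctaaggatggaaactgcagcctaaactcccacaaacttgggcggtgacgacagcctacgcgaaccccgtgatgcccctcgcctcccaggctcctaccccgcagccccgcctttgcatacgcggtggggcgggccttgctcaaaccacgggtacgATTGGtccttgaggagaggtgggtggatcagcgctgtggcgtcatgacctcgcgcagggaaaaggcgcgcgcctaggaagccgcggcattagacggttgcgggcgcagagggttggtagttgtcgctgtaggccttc
Mcm7: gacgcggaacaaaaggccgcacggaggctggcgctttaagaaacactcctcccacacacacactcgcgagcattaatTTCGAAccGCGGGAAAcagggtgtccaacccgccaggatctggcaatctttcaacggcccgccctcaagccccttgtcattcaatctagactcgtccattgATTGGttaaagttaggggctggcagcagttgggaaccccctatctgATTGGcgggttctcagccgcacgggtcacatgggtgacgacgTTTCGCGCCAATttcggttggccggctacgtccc
Ccnb2: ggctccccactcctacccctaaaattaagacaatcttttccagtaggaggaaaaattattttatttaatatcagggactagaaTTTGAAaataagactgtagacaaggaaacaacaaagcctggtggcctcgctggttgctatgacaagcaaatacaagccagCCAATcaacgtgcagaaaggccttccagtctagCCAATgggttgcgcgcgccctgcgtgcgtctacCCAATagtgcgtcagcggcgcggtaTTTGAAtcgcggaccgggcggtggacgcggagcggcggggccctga
Plk1: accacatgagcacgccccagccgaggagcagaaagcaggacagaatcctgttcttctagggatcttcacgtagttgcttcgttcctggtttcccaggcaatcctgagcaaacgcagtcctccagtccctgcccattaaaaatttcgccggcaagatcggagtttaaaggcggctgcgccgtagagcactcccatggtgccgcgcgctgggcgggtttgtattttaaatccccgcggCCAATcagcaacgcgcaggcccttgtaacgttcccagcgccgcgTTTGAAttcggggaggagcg

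Promoters were listed for 32 of the 43 members, and not for Mcm4, Gins1, Gins2, Pole, Ccnd1, Ccne2, Ccna2, Foxm1, Aurkb, Kif20a and Tpx2. Each member was counted once, with a match in any of its listed promoters, whereas all promoters were counted singly. A member with several promoters thus had more chances of a match. An E2F match was present in 9 of 13 S phase promoters (69.2%), in 1 of 16 G2/M promoters (6.25%), that of Cdk1, and in 744 of all 32851 promoters (2.26%). A CHR match was present in 12 of 16 G2/M promoters (75%), in 3 of 13 S phase promoters (23.1%) and in 6316 of all promoters (19.2%). The CCAAT box was found in 14 of 16 G2/M promoters (87.5%), 10 of 13 S phase promoters (76.9%) and 12289 of all promoters (37.4%). The Pcna window held 1 CCAAT match and neither other motif, the Mcm7 window held all 3 motifs, and the Ccnb2 window held 2 CHR and 3 CCAAT matches. Top2a had the most matches of the G2/M genes, with 4 CHR and 6 CCAAT. A match is a run of letters and not a measured site of binding.

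**Figure D1:**
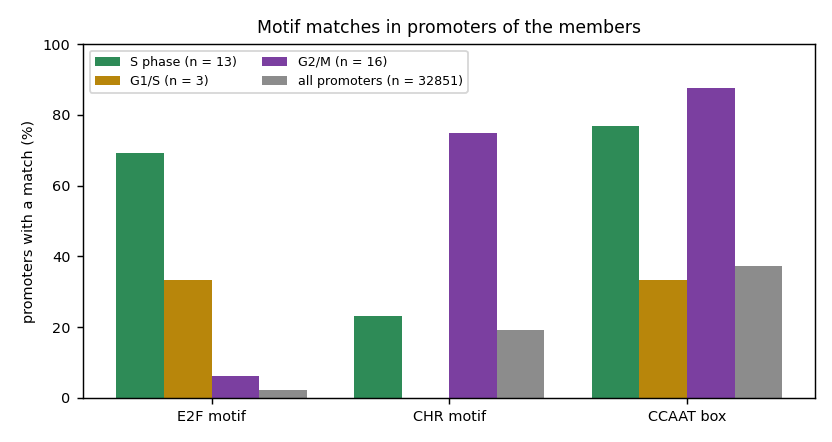
Share of promoters, in percent, with at least 1 match to the E2F motif, the CHR motif or the CCAAT box, for the S phase, G1/S and G2/M members and for all 32851 promoters of the table. Members are counted by gene, over any of their promoters, and all promoters singly. The E2F bar is highest for S phase members (69.2%) and the CHR bar for G2/M members (75%).

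The libraries held between 16209352 and 18003201 recovered reads, and the fewest reads behind a member's value were 99 (Ccne2 in control replicate 2). Control replicate 2 stood apart. Mitochondrial genes took 14.5% of its reads and 1.65% to 1.95% in the other 5 libraries, its size factor was 0.769 against 1.06 to 1.11 in them, and the Pearson correlation of its log2(FPKM + 1) with any other library across genes was 0.732 to 0.779. Among the PM2.5 libraries, replicates 1 and 2 had a correlation of 0.991, and replicate 3 had 0.950 and 0.958 with them. The comparisons are therefore given with and without control replicate 2, and the part of its mitochondrial share in the results was not tested. The labelled cell type was not borne out by its markers, as none of 16 spermatocyte genes reached a mean of 1 FPKM and 6 were listed at 0 in all libraries, whereas Col1a1 and Col1a2, collagen genes of mesenchymal cells, reached 452 and 202 FPKM.

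All 43 genes were expressed. Pcna had the highest mean level, 200.8 FPKM over the 6 libraries, followed by Top2a (112 FPKM), Ccnb2 (93.1 FPKM), Ccna2 (87.6 FPKM) and Mcm4 (86 FPKM). The lowest means were those of Orc1 (5.86 FPKM), Ccne1 (6.76 FPKM) and Cenpf (8.44 FPKM). The libraries of Top2a, Ccnb2, Ccna2 and Mcm4 overlapped one another, while every library of Pcna lay above every library of the other members.

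**Figure D2:**
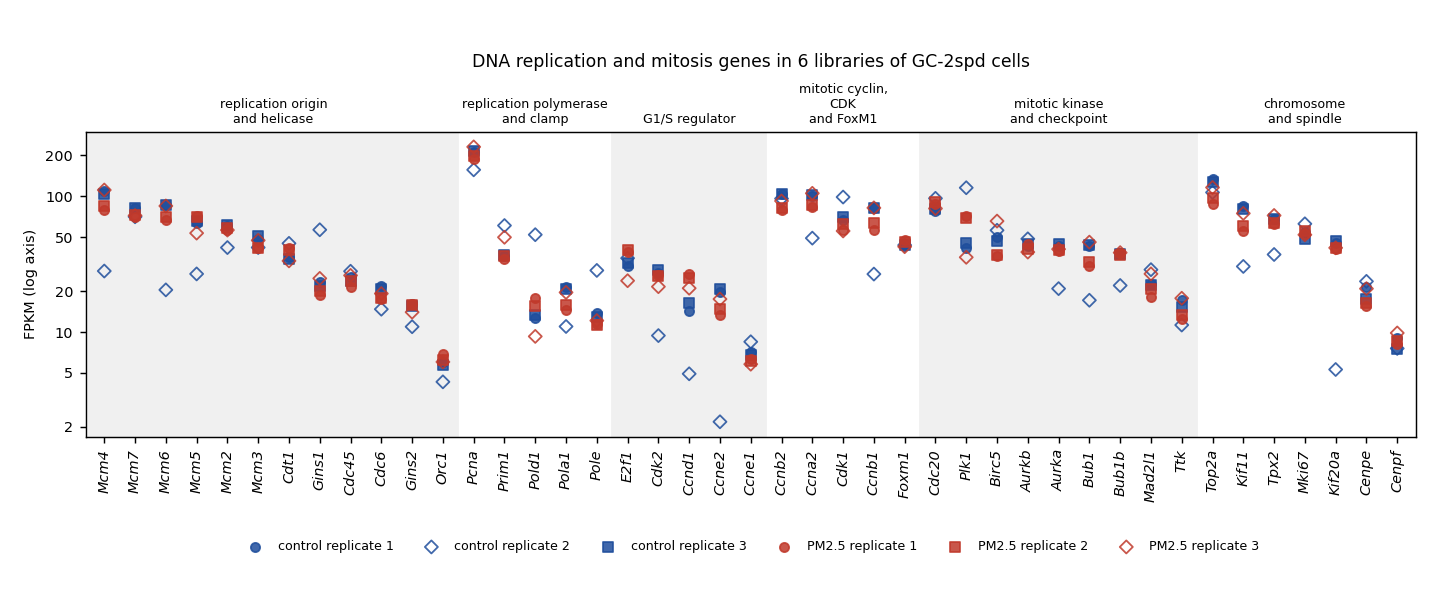
FPKM (log axis) of the 43 genes in each library, grouped by role and ordered by mean level, with control libraries in blue and PM2.5 libraries in red. Open diamonds, control replicate 2 and PM2.5 replicate 3, lie farthest from their group in many genes. Both do so in Plk1, while in Kif20a only control replicate 2 stands apart.

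Over all 6 libraries, none of the 43 genes passed the adjusted p-value of 0.05 in limma, at which 0.0926% of all genes tested were called. The lowest adjusted p-value among the members was 0.875, and limma-voom on the recovered reads called 0 members and 0% of all genes. At an unadjusted p-value under 0.05, Ccnd1 was the only member, 1 of 43 against 3.80% of all genes. The groups did not overlap in 6 of 43 members (14%), against 15.2% of all genes tested. Orc1 and Ccnd1 were higher in each PM2.5 library than in any control library, and Pole, Ccne1, Ccnb2 and Cdk1 were lower. Of all genes, 992 were higher and 814 lower in this way. The members divided into 23 with a higher and 20 with a lower mean after PM2.5, and all genes into 6166 and 5718. Their median log2 fold change was -0.03 for the S phase genes, 0.31 for the G1/S genes and 0.03 for the G2/M genes, beside 0.02 for all genes. With each library scaled to an equal total of reads instead, 33 of 43 members were higher and the median of all genes was itself 0.13.

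Without control replicate 2, again none of the 43 genes was called by limma or by limma-voom on the recovered reads. Of all genes, limma called 1.03% and limma-voom 1.36%. At an unadjusted p-value under 0.05 there were 5 of 43 (11.6%), against 16.0% of all genes. These were Ccnd1, which was higher, and Ccne2, Ccnb2, Top2a and Kif11, which were lower. The groups did not overlap in 19 members (44.2%), against 37.6% of all genes, 3 of them higher (Orc1, Ccnd1 and Cdc20) and 16 lower. Of all 11597 genes, 2065 did not overlap and were higher, and 2298 did not overlap and were lower. The direction of the members' means changed to 13 higher and 30 lower, against 5572 higher and 6025 lower of all genes. The medians were -0.09 for S phase, -0.18 for G1/S and -0.12 for G2/M genes, beside -0.01 for all genes. The median of the G2/M genes minus that of the S phase genes was 0.06 with all libraries and -0.03 without control replicate 2. No test was made of this difference.

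**Figure D3:**
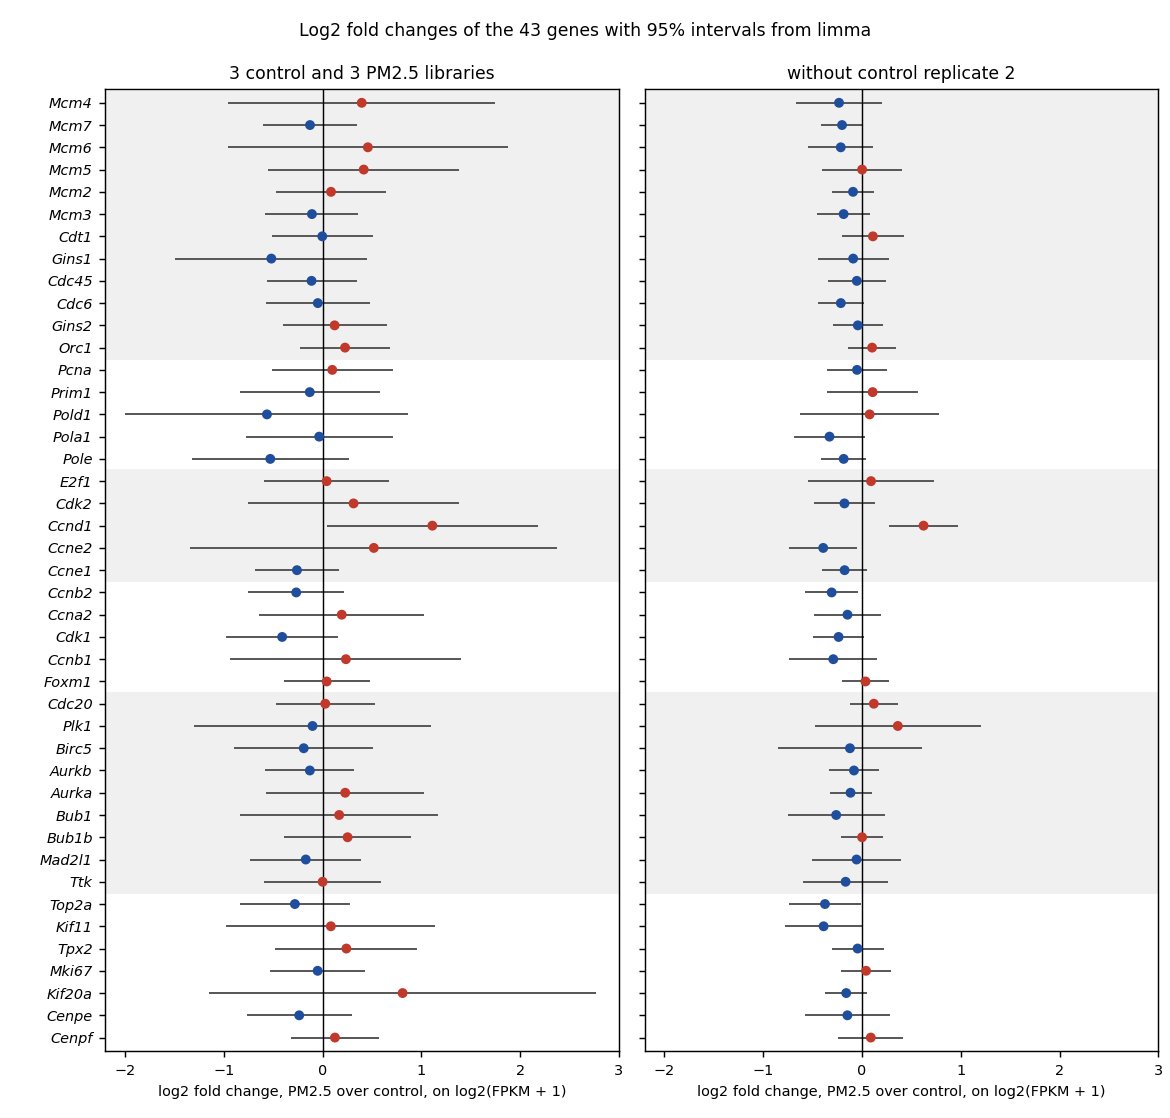
Log2 fold change (PM2.5 over control, on log2(FPKM + 1)) of each of the 43 genes with its 95% interval from limma, over all 6 libraries (left) and without control replicate 2 (right), red above 0 and blue below 0. The median standard error of the members is 0.26 on the left and 0.12 on the right, and 23 and 13 members lie above 0.

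Pcna encodes the sliding clamp, a protein that the study followed as a marker of proliferation. The gene is ENSMUSG00000027342, chr2:132249162-132253314 on GRCm38. Its transcript was at 211, 157 and 216 FPKM in control replicates 1, 2 and 3 and 189.7, 199.8 and 231 FPKM in PM2.5 replicates 1, 2 and 3. The groups overlapped, as PM2.5 replicate 3 was the highest library and control replicate 2 the lowest. With all libraries, limma gave a log2 ratio of 0.10 ± 0.25 (SE) with an adjusted p of 0.914, and without control replicate 2 one of -0.05 ± 0.12 (SE) with an adjusted p of 0.862. The 95% interval of the log2 fold change was -0.52 to 0.71 over the 6 libraries and -0.36 to 0.26 without control replicate 2. A two-sided exact permutation test gave p = 0.7 over 6 libraries, where the smallest possible p is 0.1, and p = 0.8 over 5, where it is 0.2. Of the 31-base sequences of Pcna, 23.3% also occur in other genes, and the part of its reads that this affects was not tested.

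Among the helicase and origin genes, no member passed the test. Mcm4, a helicase subunit and the most abundant of them, was at 109, 28.2 and 105 FPKM in control replicates 1, 2 and 3 and 79.3, 84.3 and 111 FPKM in PM2.5 replicates 1, 2 and 3. Control replicate 2 was the lowest library, and PM2.5 replicate 3 lay above all controls. In limma, Mcm4 differed between groups by 0.40 ± 0.55 (SE) in log2 units (adjusted p = 0.876), and by -0.23 ± 0.17 (SE) once control replicate 2 was left out (adjusted p = 0.549). The sign thus changed with that library.

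Mcm7, another helicase subunit (ENSMUSG00000029730, chr5:138164583-138172422 on GRCm38), was at 82.7, 70.7 and 82.6 FPKM in control replicates 1, 2 and 3 and 69.9, 73.2 and 72.1 FPKM in PM2.5 replicates 1, 2 and 3. Without control replicate 2, each PM2.5 library was lower than each control, and with it the groups overlapped. For Mcm7 the difference in log2 units was -0.13 ± 0.20 (SE) with control replicate 2 (limma, adjusted p = 0.878) and -0.20 ± 0.09 (SE) without it (adjusted p = 0.341). Mcm7 shares 33.4% of its 31-base sequences with other genes. By position, Cops6 and Ap4m1 overlap it on the opposite strand and 3 microRNA genes on its own strand.

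Gins1, a GINS subunit, was at 23.4, 56.7 and 21.8 FPKM in control replicates 1, 2 and 3 and 18.9, 20.2 and 24.9 FPKM in PM2.5 replicates 1, 2 and 3, so that control replicate 2 was more than 2-fold above each other library and the rest overlapped. PM2.5 and control differed on the log2 scale by -0.52 ± 0.40 (SE) over the 6 libraries (limma, adjusted p = 0.875), and by -0.09 ± 0.14 (SE) without control replicate 2 (adjusted p = 0.785). Of the remaining helicase and origin genes, Mcm2, Mcm3, Mcm6 and Cdc6 were lower in each PM2.5 library than in control replicates 1 and 3, and Orc1 was higher. Mcm5, Cdc45, Gins2 and Cdt1 overlapped in this comparison, in which 37.6% of all genes did not overlap. Control replicate 2 was below every PM2.5 library for Mcm2, Mcm6 and Cdc6, and lay among the PM2.5 libraries for Mcm3. The differences of Mcm2 and Mcm6 were above 0 with control replicate 2 and below 0 without it.

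Of the 5 polymerase and clamp genes, none passed the test. Pole, the catalytic subunit of the leading-strand polymerase, was at 13.9, 28.5 and 12.9 FPKM in control replicates 1, 2 and 3 and 11.5, 11.3 and 12.1 FPKM in PM2.5 replicates 1, 2 and 3. Each PM2.5 library was below each control, and control replicate 2 was the highest library by a wide margin. With all libraries, limma gave a log2 ratio of -0.53 ± 0.33 (SE) with an adjusted p of 0.875, and without control replicate 2 one of -0.19 ± 0.09 (SE) with an adjusted p of 0.391.

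Pola1, the catalytic subunit of the polymerase that extends primers, was at 21.4, 11 and 20.8 FPKM in control replicates 1, 2 and 3 and 14.6, 15.9 and 19.6 FPKM in PM2.5 replicates 1, 2 and 3. The lowest library was control replicate 2, and the PM2.5 libraries were below the other controls. In limma, Pola1 differed between groups by -0.03 ± 0.30 (SE) in log2 units (adjusted p = 0.972), and by -0.33 ± 0.14 (SE) once control replicate 2 was left out (adjusted p = 0.354). Prim1, the primase, had a difference of -0.13 ± 0.29 (SE) with control replicate 2 and 0.11 ± 0.18 (SE) without it. Pold1, a lagging-strand polymerase subunit, had -0.56 ± 0.59 (SE) with and 0.08 ± 0.28 (SE) without that library. The sign of both differences changed with it.

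Of the G1/S regulators, Ccnd1 had the largest difference of all members. It encodes cyclin D1, which activates Cdk4 and Cdk6 (ENSMUSG00000070348, chr7:144929931-144939925 on GRCm38), and was at 14.3, 4.93 and 16.4 FPKM in control replicates 1, 2 and 3 and 26.9, 24.8 and 21 FPKM in PM2.5 replicates 1, 2 and 3. Each PM2.5 library was above each control library, and control replicate 2 was the lowest. For Ccnd1 the difference in log2 units was 1.11 ± 0.44 (SE) with control replicate 2 (limma, adjusted p = 0.875) and 0.62 ± 0.14 (SE) without it (adjusted p = 0.136). The 95% interval without control replicate 2 was 0.27 to 0.98, and the adjusted p-value missed the threshold. Without control replicate 1 as well, the log2 fold change was 0.53, and without control replicate 3 instead of control replicate 1 it was 0.71. Neither fit had replicates in the control group. Of the 31-base sequences of Ccnd1, 22.3% occur in other genes, and LTO1 overlaps it on the opposite strand.

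E2f1, the transcription factor of S phase genes, was at 30.7, 35 and 32.2 FPKM in control replicates 1, 2 and 3 and 38.8, 40.6 and 23.9 FPKM in PM2.5 replicates 1, 2 and 3. PM2.5 replicates 1 and 2 were the highest libraries and PM2.5 replicate 3 was the lowest. PM2.5 and control differed on the log2 scale by 0.04 ± 0.26 (SE) over the 6 libraries (limma, adjusted p = 0.962), and by 0.09 ± 0.25 (SE) without control replicate 2 (adjusted p = 0.877). The cyclins E shared a direction without control replicate 2, where Ccne1 and Ccne2 were lower in each PM2.5 library than in each control, with log2 differences of -0.18 and -0.39. With it the differences were -0.26 and 0.52, so that only that of Ccne2 changed sign. For Ccne2, chosen here after its values were seen, control replicate 2 was at 2.18 FPKM and the other libraries between 13.3 and 20.6 FPKM, and 15.6% of its 31-base sequences are shared. Cdk2, the partner of cyclin E, had a difference of 0.31 with that library and -0.18 without it (adjusted p = 0.876 and 0.523 from limma).

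Of the mitotic cyclins and their kinase, Ccnb2 and Cdk1 were lower in every PM2.5 library than in every control library. Over the 6 libraries, 15.2% of all genes did not overlap. The groups of Ccna2 and Ccnb1 overlapped with and without control replicate 2. Their log2 differences were 0.19 and 0.24 with that library and -0.15 and -0.29 without it. Ccnb2, cyclin B2 (ENSMUSG00000032218, chr9:70407692-70421547 on GRCm38), was at 104, 96.2 and 105 FPKM in control replicates 1, 2 and 3 and 79.4, 81.8 and 92.4 FPKM in PM2.5 replicates 1, 2 and 3. With all libraries, limma gave a log2 ratio of -0.27 ± 0.20 (SE) with an adjusted p of 0.875, and without control replicate 2 one of -0.31 ± 0.11 (SE) with an adjusted p of 0.268. None of its 31-base sequences occurs in another gene.

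Cdk1, the kinase that starts mitosis, was at 67.3, 98.8 and 69.9 FPKM in control replicates 1, 2 and 3 and 56.1, 62.9 and 55.6 FPKM in PM2.5 replicates 1, 2 and 3. Control replicate 2 was the highest library, and the PM2.5 libraries lay below the other controls by a smaller margin. In limma, Cdk1 differed between groups by -0.41 ± 0.23 (SE) in log2 units (adjusted p = 0.875), and by -0.24 ± 0.10 (SE) once control replicate 2 was left out (adjusted p = 0.343). Foxm1, the transcription factor of G2/M genes, lay between 42.6 and 47.3 FPKM in all 6 libraries, a difference between groups of 0.04 (SE 0.18, limma adjusted p = 0.947) in log2 units, and of 0.04 (SE 0.09, limma adjusted p = 0.873) without control replicate 2.

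The mitotic kinases and checkpoint genes did not share a direction. Cdc20, the activator of the anaphase-promoting complex, was at 77.8, 96.7 and 81.1 FPKM in control replicates 1, 2 and 3 and 88.1, 90.1 and 81.3 FPKM in PM2.5 replicates 1, 2 and 3. The PM2.5 libraries were above control replicates 1 and 3, but control replicate 2 was above all. For Cdc20 the difference in log2 units was 0.03 ± 0.21 (SE) with control replicate 2 (limma, adjusted p = 0.968) and 0.12 ± 0.10 (SE) without it (adjusted p = 0.577). It shares 26.7% of its 31-base sequences, with Elovl1 overlapping on the opposite strand.

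Bub1b, a checkpoint protein at unattached kinetochores, was at 38.1, 22 and 37.6 FPKM in control replicates 1, 2 and 3 and 38, 37.3 and 38.5 FPKM in PM2.5 replicates 1, 2 and 3, with control replicate 2 below the other libraries, which lay close together. PM2.5 and control differed on the log2 scale by 0.25 ± 0.27 (SE) over the 6 libraries (limma, adjusted p = 0.875), and by 0.0013 ± 0.08 (SE) without control replicate 2 (adjusted p = 0.995). Aurka, the Aurora A kinase of the spindle poles, was at 43.3, 20.9 and 44.4 FPKM in control replicates 1, 2 and 3 and 39.8, 40.5 and 40.8 FPKM in PM2.5 replicates 1, 2 and 3. Its PM2.5 libraries lay below control replicates 1 and 3 and above control replicate 2. With all libraries, limma gave a log2 ratio of 0.23 ± 0.33 (SE) with an adjusted p of 0.876, and without control replicate 2 one of -0.12 ± 0.08 (SE) with an adjusted p of 0.543.

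Plk1, a mitotic kinase, and Birc5, survivin of the chromosomal passenger complex, were chosen after their values were seen, since their PM2.5 libraries divided. Plk1 was at 41.7, 116 and 45 FPKM in control replicates 1, 2 and 3 and 71.1, 69.4 and 35.6 FPKM in PM2.5 replicates 1, 2 and 3. Its PM2.5 replicates 1 and 2 were above and PM2.5 replicate 3 was below control replicates 1 and 3, and control replicate 2 was the highest library. In limma, Plk1 differed between groups by -0.10 ± 0.49 (SE) in log2 units (adjusted p = 0.951), and by 0.36 ± 0.33 (SE) once control replicate 2 was left out (adjusted p = 0.624). Plk1 shares 18.7% of its 31-base sequences with other genes.

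Birc5 was at 50.1, 56.2 and 46.9 FPKM in control replicates 1, 2 and 3 and 36.2, 37 and 65.7 FPKM in PM2.5 replicates 1, 2 and 3, with the opposite division, PM2.5 replicate 3 being the highest library. For Birc5 the difference in log2 units was -0.19 ± 0.29 (SE) with control replicate 2 (limma, adjusted p = 0.877) and -0.12 ± 0.29 (SE) without it (adjusted p = 0.859). PM2.5 replicate 3 differed from the mean of PM2.5 replicates 1 and 2 by -0.96 for Plk1 and 0.83 for Birc5 on the log2 scale.

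Among the chromosome and spindle genes, Top2a, the topoisomerase that untangles sister chromatids, was at 133, 107 and 127 FPKM in control replicates 1, 2 and 3 and 88.5, 97.5 and 116 FPKM in PM2.5 replicates 1, 2 and 3. Control replicate 2 lay between PM2.5 replicates 2 and 3, and the other controls were above all PM2.5 libraries. PM2.5 and control differed on the log2 scale by -0.28 ± 0.23 (SE) over the 6 libraries (limma, adjusted p = 0.875), and by -0.37 ± 0.14 (SE) without control replicate 2 (adjusted p = 0.303). Kif11, the motor that separates the spindle poles, was named after its values were seen and was at 84.5, 30.4 and 81.1 FPKM in control replicates 1, 2 and 3 and 55.3, 60.4 and 74.9 FPKM in PM2.5 replicates 1, 2 and 3. It was lowest in control replicate 2, and the remaining controls lay above every PM2.5 library. With all libraries, limma gave a log2 ratio of 0.08 ± 0.43 (SE) with an adjusted p of 0.953, and without control replicate 2 one of -0.39 ± 0.15 (SE) with an adjusted p of 0.311. Mki67, the proliferation antigen, lay between 48.5 and 62.7 FPKM in all libraries, a difference between groups of -0.05 (SE 0.20, limma adjusted p = 0.941) in log2 units, and of 0.04 (SE 0.10, limma adjusted p = 0.862) without control replicate 2.

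The spread between libraries was unequal. The median absolute log2 difference over the 43 genes was 0.06 between control replicates 1 and 3, 0.07 between PM2.5 replicates 1 and 2, 0.27 between PM2.5 replicate 3 and the mean of the other PM2.5 libraries, and 0.52 between control replicate 2 and the mean of the other controls. Control replicate 2 differed by more than 2-fold in 16 of 43 members (37.2%), against 41.1% of all genes. Of these 16 genes, 12 were lower and 4 were higher in it, and of all genes 2441 were lower and 2444 were higher. Kif20a, a kinesin of cytokinesis, was at 5.30 FPKM in control replicate 2 and between 40.9 and 47.3 FPKM elsewhere, a log2 difference from the other controls of -2.91. The other differences over 2 on this scale were those of Ccne2 (-2.73) and Mcm6 (-2.02), and the 4 higher genes were Pold1 (1.92), Plk1 (1.40), Gins1 (1.29) and Pole (1.03). Aurkb and Ccne1 differed by 0.15 and 0.25. Kif20a shares 26.7% of its 31-base sequences with other genes.

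**Figure D4:**
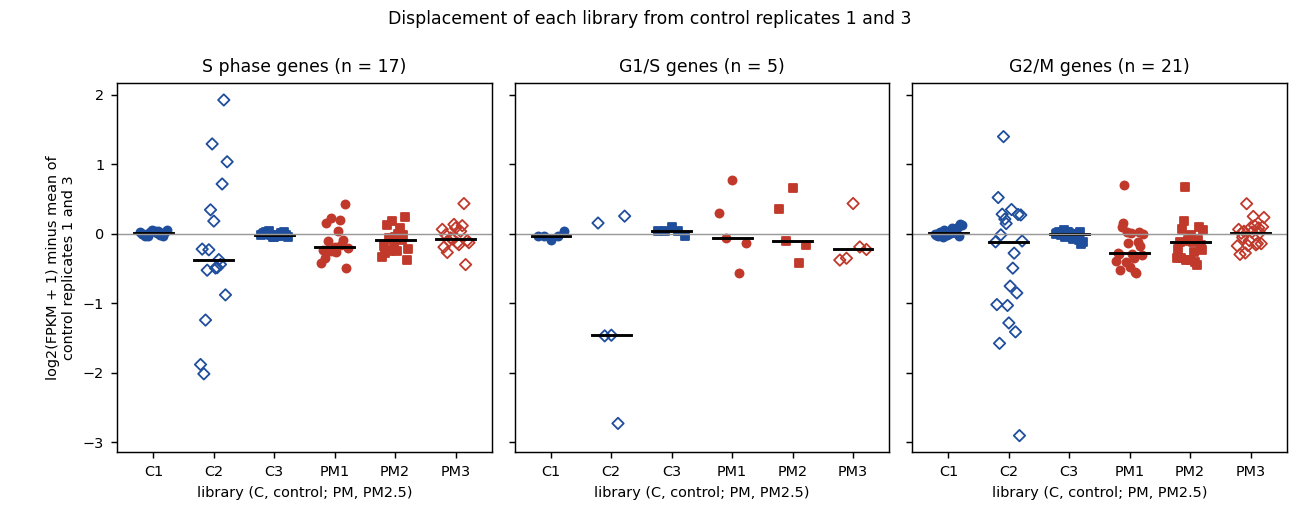
Log2(FPKM + 1) of each member in each library minus the mean of control replicates 1 and 3, for S phase, G1/S and G2/M genes, with black lines at the medians. Control replicate 2 (C2) spreads from -2.91 to 1.92 over the 43 genes, and PM2.5 replicates 1 and 2 (PM1, PM2) have medians below 0 in each class.

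With control replicate 2 and PM2.5 replicate 3 both left out, 24 of the 43 genes passed the adjusted p-value of 0.05 in limma (55.8%), against 48.1% of all genes tested. These 2 libraries were left out because they stood apart in these data, and 2 libraries remained in each group, so the p-values measure the spread within pairs of closely alike libraries. Higher were 6 of 43 members (14%, against 24.0% of all genes) and lower were 18 (41.9%, against 24.1%). The S phase genes divided into 2 higher and 8 lower of 17, the G1/S genes into 2 higher and 1 lower of 5, and the G2/M genes into 2 higher and 9 lower of 21. The genes that rose were Ccnd1 (log2 fold change 0.72), Plk1 (0.68), Pold1 (0.34), E2f1 (0.33), Cdt1 (0.20) and Cdc20 (0.16). The genes that fell most were Kif11 (-0.51), Ccne2 (-0.49), Top2a (-0.48), Pola1 (-0.44), Ccnb1 (-0.44) and Bub1 (-0.43). No member had an absolute log2 fold change above 1. Ccnb1 shares 27.8% of its 31-base sequences with other genes. The median of the G2/M genes minus that of the S phase genes was -0.07.

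In PM2.5 replicate 3, which took no part in those calls, 13 of the 24 genes (54.2%) lay on the same side of control replicates 1 and 3 and 11 lay on the other side. Of all 5594 genes called, 55.4% lay on the same side. The same 2 control libraries entered the calls, so this count is a description. On the same side were Ccnd1, Ccnb2, Top2a, Kif11, Mcm7, Pole and Pola1, among others. On the other side were Plk1, Birc5, E2f1, Pold1, Cdt1, Mcm4, Gins1, Ccna2, Ccnb1, Bub1 and Ttk. PM2.5 replicate 1 or PM2.5 replicate 2 was also left out beside control replicate 2. None of the 43 genes was then called, and 0% of all genes tested were called in either fit. Without control replicate 1 or control replicate 3 beside control replicate 2, the control group had no replicates. The median log2 fold change of the members was then -0.09 or -0.13, in that order.

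**Figure D5:**
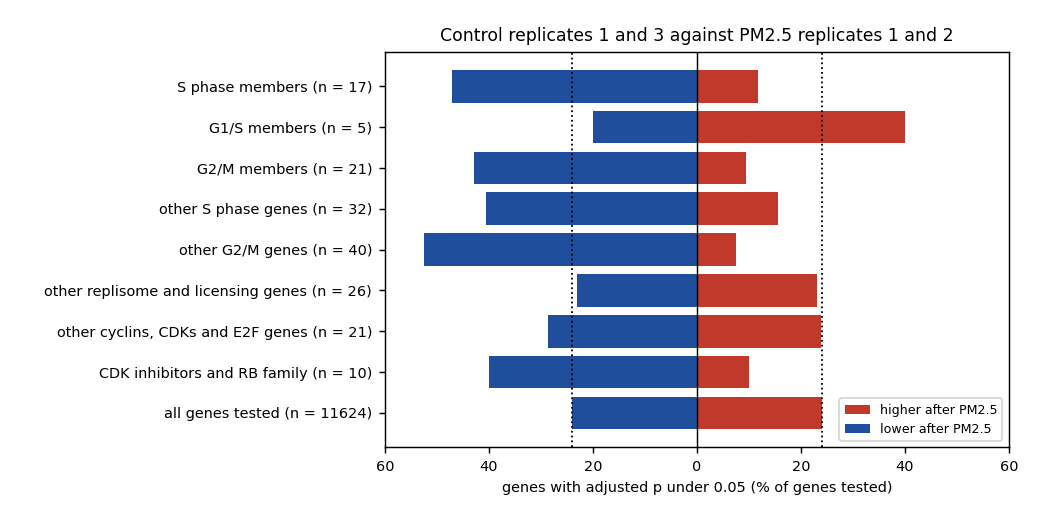
Percentage of genes called higher (red) or lower (blue) after PM2.5 at an adjusted p-value under 0.05 in limma, with control replicates 1 and 3 against PM2.5 replicates 1 and 2. Dotted lines mark all genes tested, 24.0% higher and 24.1% lower. S phase, G1/S and G2/M members lie at 47.1%, 20% and 42.9% lower, and at 11.8%, 40% and 9.5% higher. Control replicate 2 and PM2.5 replicate 3 were left out because they stood apart in these data. In PM2.5 replicate 3, 11 of the 24 members called lay on the other side of the 2 controls.

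Other genes of the pathway were taken from lists of 32 S phase genes, 40 G2/M genes, 26 replisome and licensing genes, 10 CDK inhibitors and RB family genes and 21 other cyclins, CDKs and E2F genes. None of these was called over all 6 libraries or without control replicate 2. Without control replicate 2, the medians of these lists were -0.07, -0.15, -0.01, -0.21 and 0.02 in that order, beside -0.01 for all genes. Over all 6 libraries they were 0.04, 0.02, -0.02, -0.35 and 0.18, beside 0.02 for all genes. Of the 40 G2/M genes, 32 had a lower mean without control replicate 2 and 19 with it, against 6025 of 11597 and 5718 of 11884 of all genes. Without control replicate 2, the lists held 1, 5, 3, 4 and 2 genes whose p in limma, before adjustment, was under 0.05, against 16.0% of all genes. Among them, the log2 fold changes were 0.30 for Rrm2, a subunit of the ribonucleotide reductase, -0.35 for Cbx5, a heterochromatin protein, -0.27 for Cenpa, the histone H3 variant of centromeres, and -0.37 for Anln, a protein of the cleavage furrow. Of the 5 G2/M genes, Cdca3, named after its values were seen, was the one with a higher mean (0.26). Over all 6 libraries, the differences of Rrm2 and Cenpa kept their sign (0.50 and -0.26), while those of Cbx5, Anln and Cdca3 did not (0.09, 0.27 and -0.45). Pole2, Pole3 and Pola2, further polymerase subunits, had -0.55, 0.27 and 0.30. Tfdp2, a dimer partner of E2F, had -0.49. Rbl2, Cdkn1b and Rb1, which restrain the cell cycle, had -0.48, -0.34 and -0.49. Over all 6 libraries, Pole2 had -0.01, Pole3 -0.39, Pola2 0.08, Tfdp2 -0.18, Rbl2 0.29, Cdkn1b -0.25 and Rb1 -0.38. Cdk4, the partner of cyclin D1, had 0.31 without control replicate 2 and 0.18 with it (adjusted p = 0.229 and 0.875 from limma). Its values were 90, 120.0 and 92.8 FPKM in control replicates 1, 2 and 3 and 114, 107 and 119 FPKM in PM2.5 replicates 1, 2 and 3, so that it was higher in each PM2.5 library than in control replicates 1 and 3 but not than in control replicate 2. With 2 libraries a group, 18 of 32, 24 of 40, 12 of 26, 5 of 10 and 11 of 21 genes of these lists were called, of which 5, 3, 6, 1 and 5 were higher. These were 56.25%, 60%, 46.2%, 50% and 52.4% of the lists. Of all genes, 48.1% were called in this fit, 24.0% higher and 24.1% lower.

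The summed level of the mesenchymal markers was 672 to 760.3 FPKM in the control and 378 to 643 FPKM in the PM2.5 libraries, the lowest being PM2.5 replicate 3, and 5 of these 6 markers had a mean of at least 1 FPKM. Of the Sertoli, Leydig and immune cell markers, 1 of 7, 1 of 6 and 1 of 4 did, and Ptprc and Adgre1, which define leukocytes and macrophages, were listed at 0 in every library. The summed spermatocyte markers were 0.585 to 2.65 FPKM in the control and 0.0837 to 0.684 FPKM in the PM2.5 libraries. The highest was control replicate 2, where Sycp3 was at 2.56 FPKM, and control replicates 1 and 3 had 0.585 and 0.601 FPKM. The summed Leydig markers were 2.01 to 2.59 and 1.74 to 1.89 FPKM in that order. The summed Sertoli markers were 18 to 19.2 FPKM in the control and 12.3 to 23.7 FPKM in the PM2.5 libraries. Most of this sum was Gata4, at 11.1 to 22.3 FPKM. The immune markers were 1.09 to 15.5 FPKM in the control and 1.33 to 2.44 FPKM in the PM2.5 libraries, the highest being Cd68 in control replicate 2. The part of these markers in the members' values was not tested. In these bulk samples, fewer cycling cells and less RNA per cell cannot be told apart.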

How the data were processed

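The authors mapped the reads with HISAT2 2.0.5 and counted them on genes with featureCounts 1.5.0-p3, and deposited FPKM for 6 libraries. The processing notes name mm9 as the build, whereas 54495 of the 54886 gene identifiers, and the exon lengths, matched GENCODE M21 on GRCm38, which gave names and positions. Strand settings are not given in the sources used here. Multiplied by exon length, 98.1% to 98.4% of the values under 50 reads fell within 0.05 of a whole number of reads (or within 0.1% of the value), which gave the depth. The FPKM had been scaled between libraries by median-of-ratios size factors, and this scaling was kept.

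Groups followed the labels. Values were tested as log2(FPKM + 1), which understates changes of low genes, with limma 3.58.1 (trend and robust, R 4.3.3, statmod 1.5.0) over all genes with a mean of at least 1 FPKM, with Benjamini-Hochberg adjustment over all of them. Genes were called at an adjusted p-value under 0.05. Fits were repeated on 5 and 4 libraries, and the script was tested on simulated data. The computed alternatives are a filter, pseudocount, scaling, quantile normalization, voom, a fold limit, each library left out and the replicate block. The members and lists were chosen with earlier results of these data known. Genes with values in every library are Pcna and, per role, the most abundant member and those with the smallest p-values with and without control replicate 2, unless said otherwise. Sharing is the percentage of 31-base sequences found in another gene on either strand.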

Additional observations from a re-analysis of the deposited data

How the results depend on the processing

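No alternative called any of the 43 genes over all 6 libraries, including each library left out in turn. Of all genes, these alternatives called 0% to 1.03%, the highest being without control replicate 2. The share was 0% with no filter, with voom, with the replicate block and without any other library, so these fits say nothing particular to the members. Without control replicate 2, the number called was 0 under every alternative on the remaining 5 libraries, which called 0.216% to 1.36% of all genes. With a PM2.5 library left out as well, it was 0 without PM2.5 replicate 1 or PM2.5 replicate 2 (0% of all genes). It was 24 without PM2.5 replicate 3 (48.1% of all genes). Fits without a further control library left no replicates in that group and are not counted here. With control replicate 2 and PM2.5 replicate 3 both left out, the alternatives were chosen after seeing the data. They called 17 (no filter, 16.7% of all genes) to 28 (voom, 55.7% of all genes), and 0 with an absolute log2 fold change above 1 as well. The cause of these differences was not tested.

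The median of the G2/M genes over all libraries moved from 0.03 to 0.16 with equal totals of recovered reads, under which all genes moved from 0.02 to 0.13, and ranged from -0.12 to 0.053 when 1 library was left out, the lowest without control replicate 2. Under this common shift the values of Mcm7 (0.0046) and Pola1 (0.088) crossed 0, which says nothing particular to them. Quantile normalization reversed Bub1b without control replicate 2 (-0.016). With 1 library left out, the log2 fold changes ranged from -0.050 to 0.18 for Pcna, -0.23 to 0.72 for Mcm4, -0.33 to 0.12 for Pola1, -0.093 to 0.28 for E2f1, -0.035 to 0.12 for Cdc20 and -0.12 to 0.41 for Aurka. Without control replicate 2 and 1 further library, they ranged from -0.042 to 0.33 for E2f1 and -0.0090 to 0.013 for Bub1b. These are genes whose sign depended on 1 library.

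With the replicate block, 0 members and 0% of all genes were called, and the smallest adjusted p of a member from limma was 0.916. Library pairs of the same number had correlations of -0.285, 0.180 and 0.253 in their deviations from the group means. Pairs of different numbers had -0.280 to 0.292. Deviations from a group mean depend on one another, and control replicate 2 lay far from the other controls. These correlations therefore cannot decide whether the numbers pair the samples. Control replicate 2 had the lowest size factor, 0.769, against 1.06 to 1.11 in the other libraries.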

Other observations

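Over the 43 genes, the log2 difference of control replicate 2 from the other controls had a Spearman's rho of 0.32 with the GC content of the exons and -0.11 with their length. Over all genes tested these were 0.34 and -0.30. Both are across genes, which share the libraries and their depth and are not independent replicates, and are given as a description.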
